A study of Homo sapiens with 6 samples.

Results

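The expressed protein-coding genes of the short arm of chromosome 5 (5p) were examined in cells named as AGS. AGS is a line derived from a human gastric adenocarcinoma. Members were chosen by the authors' mean expression values: protein-coding genes that start before position 46000000 of chromosome 5 in GRCh37 and have a mean of at least 1 TPM in either group. TPM is a read abundance scaled to transcript length and to the library total. Symbols beginning NDUF, MRP, RPL, DNAJ or ZNF, and SDHA, DROSHA and HMGCS1, were left out. This gave 86 genes of 12891 filtered in the same way across the genome, and 151 protein-coding genes of the arm had a value in the table.

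RNA sequencing was done on 3 libraries of control cells and on 3 of FTO-depleted cells. They are titled si-NC, for a control siRNA, and si-FTO, for siRNA against FTO. FTO is an enzyme that removes methyl groups from adenosines in RNA. The libraries were made from total RNA with a stranded kit. Both groups are given as AGS cells, and the labels name no separate cultures. As genotype the labels name FTO-/- for the si-FTO libraries and wild type for the controls, while the titles and the paper's methods speak of siRNA, so the kind of depletion cannot be told apart here. FTO itself, on chromosome 16, stood at 33.1 TPM in si-NC against 7.27 TPM in si-FTO, which is a log2 ratio of -2.05, and was not listed at 0 in either group.

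The expression values were deposited as 1 mean per group, so the error between libraries cannot be read from them. No difference was tested here, the p-values of the authors' own comparison were not used, and every comparison is a description of 2 means. Sequencing depth is unknown as well, because TPM keeps no total count. Log2 ratios are those of mean TPM + 1, si-FTO over si-NC, a scale that understates differences of low genes. A gene at the lowest deposited value is called listed at 0, and no fold is given for it. For median-ratio scaling, the median log2 ratio without a pseudocount was -0.21 over 14595 protein-coding genes not listed at 0 in either group. The 5p genes are set beside all other genes throughout so that they can be read against that shift.

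As background, 5p is a small, gene-poor arm that carries the telomerase gene TERT near its tip and a run of cytokine receptor genes nearer the centromere. Extra copies of the arm are common in epithelial tumours, and loss of its end causes cri-du-chat syndrome, but DNA was not measured here. A shared position does not give genes a shared function, and the arm holds transporters, receptors, adhesion proteins, enzymes and housekeeping genes side by side.

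The labelled cell type was checked against 10 epithelial genes, of which 6 reached 1 TPM in si-NC and 6 in si-FTO. Their summed level was 89.6 TPM in si-NC against 5104 TPM in si-FTO. The most abundant was KRT18 in si-NC, at 52.1 TPM against 1851 TPM in si-FTO, and KRT8 in si-FTO, at 3139 TPM against 10.8 TPM in si-NC. These keratins form the filaments of simple epithelia, and the summed level follows them. The adhesion proteins EPCAM, at 1.22 and 0.113 TPM in si-NC and si-FTO, and CDH1, at 3.67 and 0.685 TPM, were low in both groups. The claudin genes CLDN7, at 1.17 and 14.8 TPM, and CLDN4, at 0.226 and 2.70 TPM, went the other way and were higher in si-FTO. KRT19 was listed at 0 in si-NC and ESRP1 in si-FTO. GATA6, a transcription factor of the gut, was lower in si-FTO, at 2.54 TPM against 20.3 TPM, and ELF3, an epithelial transcription factor, was higher, at 93.3 TPM against 0.115 TPM. The groups thus differed widely in epithelial genes, and the check did not bear out the label for both alike. The reason was not tested.

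Genes of other cell types were also looked at. Of 5 fibroblast genes, summing to 13.0 TPM in si-NC against 43.0 TPM in si-FTO, 2 reached 1 TPM in each group. COL1A1 was the most abundant, at 10.3 and 36.4 TPM. COL3A1 was lower in si-FTO, at 2.18 and 0.361 TPM, and PDGFRB, a growth factor receptor, was higher, at 0.370 and 5.34 TPM. COL1A2 was at 0.00982 TPM in the controls and listed at 0 in si-FTO, so the collagen genes, typical of connective tissue cells, did not go in 1 direction. Among leukocyte genes, the defining gene PTPRC was listed at 0 in both groups, and CD3E in si-FTO. Of 3 endothelial genes 2 were matched, and their sum was 0.0132 TPM in si-NC against 41.0 TPM in si-FTO, nearly all of it from CDH5, the 1 gene of the list to reach 1 TPM. The part of these marker differences in the values of the 5p genes was not tested. In such bulk RNA, fewer cells of a type and less RNA per cell cannot be told apart.

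Most 5p genes were higher in si-FTO than in si-NC. The median log2 ratio of the 86 members was 0.77, with quartiles of -0.00 and 1.37, against -0.20 for the 12805 other genes, whose quartiles were -0.80 and 0.38. The medians differed by 0.98. With no limit on low values the median was 0.09 and the difference 0.12 over 141 genes, 24 of them listed at 0 in both groups. Of the members, 64 (74.4%) had a ratio above 0, against 40.2% of the other genes. A log2 ratio of at least 1 was reached by 35 members (40.7%), against 12.9% of the other genes, and a ratio of -1 or below by 14 members (16.3%), against 19.8%. Quantile normalization turned these counts into 39 and 7 members, against 15.4% and 15.9% of the other genes. Because the members were selected on the same means, the shares are given side by side and nothing is read from them as support.

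**Figure D1:**
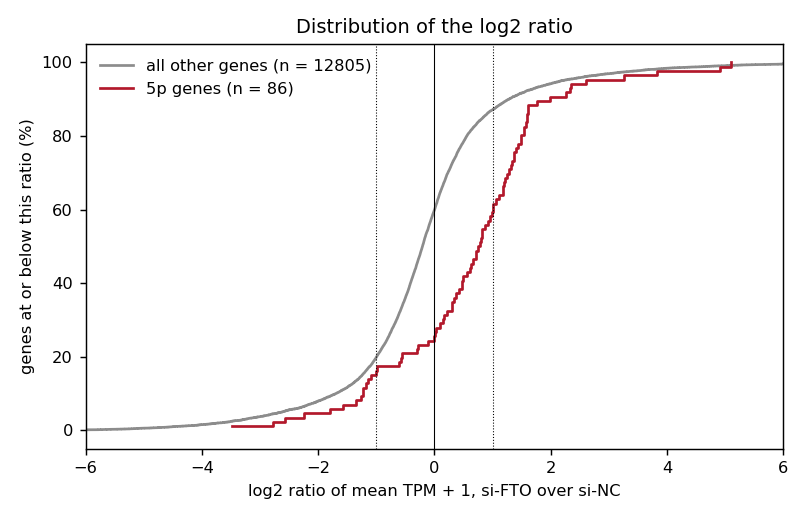
Cumulative share of genes (percent) by log2 ratio of mean TPM + 1, si-FTO over si-NC, for the 86 genes of 5p (red) and the 12805 other genes (grey). Solid and dotted vertical lines mark ratios of 0 and of 1 in size, and the red line lies to the right, with medians of 0.77 and -0.20.

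Moderate positive ratios were common. A log2 ratio between 0.5 and 2 was seen for 42 members (48.8%) and for 15.8% of the other genes. The sum over members was 3220 TPM in si-NC against 6948 TPM in si-FTO, 2.16 times as much. Without BASP1, the member with the largest gain in TPM, the sums were 3189 and 5992 TPM. The median member stood at 15.3 TPM in si-NC against 27.7 TPM in si-FTO, while the median of the other genes was 19.6 and 18.3 TPM.

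The members passed the expression limit in different ways. In both groups 71 of the 86 reached 1 TPM, 10 passed only through si-NC and 5 only through si-FTO, so those 15 had to differ between the groups. Just inside the limit lay PTGER4, at 0.466 TPM in si-NC against 1.03 TPM in si-FTO, ROPN1L, at 1.06 and 0.0306 TPM, and CDH10, at 1.25 TPM and listed at 0. Just outside lay CCDC152, at 0.592 and 0.0971 TPM, CDH18, at 0.516 TPM in si-NC but listed at 0 in si-FTO, and CCL28, listed at 0 in si-NC but at 0.515 TPM in si-FTO. Of the arm's other protein-coding genes, 55 lay under the limit, 24 of them listed at 0 in both groups, and 10 were left out by their symbols.

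Genes were also split by the average of their group means. The 25 members at 60 TPM or more had a median log2 ratio of 1.21, and 23 of them (92.0%) were above 0, against 44.3% of the other genes in that band. The exceptions were SKP2 and NUP155. The 23 members between 20 and 60 TPM had a median of 0.95, with 19 above 0 (82.6%), against 42.0% of the other genes. The 18 members between 5 and 20 TPM had a median of 0.82, with 16 above 0 (88.9%), against 40.0%. Below 5 TPM, 13 of the 20 members reached 1 TPM in a single group, 9 through si-NC and 4 through si-FTO, and so had to differ. Of the 7 that reached it in both groups, 2 were above 0, beside 390 of 961 other genes of that kind. The median of this band was -1.12, with 6 above 0 (30.0%), against 33.8% of the other genes. A ratio of -1 or below was seen for 12 of its members (60%), 8 of them past the limit through si-NC alone, against 40.8% of the other genes. The other genes in these bands, from abundant to scarce, had medians of -0.11, -0.15, -0.21 and -0.64. Across the 86 members the Spearman correlation of log2 ratio with average expression was 0.46, against 0.17 across the other genes. Both measures come from the same means, and genes are not independent replicates.

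**Figure D2:**
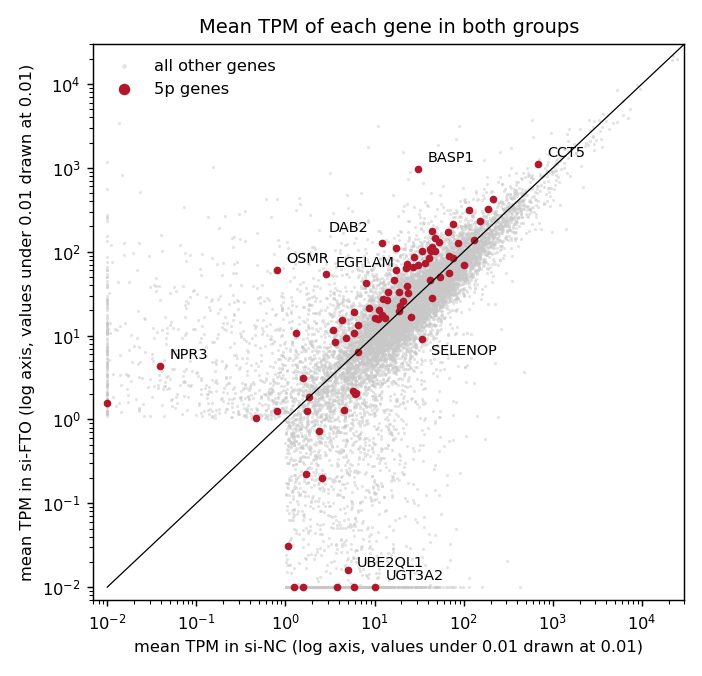
Mean TPM in si-NC and si-FTO for each gene on log axes, with the 86 genes of 5p in red and all other genes in grey, values under 0.01 drawn at 0.01, and a line of equal means. Most red points above 5 TPM lie over the line, whereas the scarce ones lie on both sides. The 5 members listed at 0 in si-FTO, UGT3A2 among them, lie at the lower edge, with UBE2QL1 just above it.

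The members at both ends of the range are shown with their promoters, because the genes of an arm that differ together may or may not share sequence at their starts. The sequences cover 250 bases before to 50 bases after the start in RefSeq, build GRCh38.p14, and were found for 77 of the 86 members. They run from the 5′ to the 3′ end on the gene's own strand. The members with the 3 highest log2 ratios were OSMR, at chr5:38845762-38846061 on the plus strand, BASP1, at chr5:17216573-17216872 on the plus strand, and EGFLAM, at chr5:38258309-38258608 on the plus strand. Those with the 3 lowest were UGT3A2, at chr5:36066833-36067132 on the minus strand, CDH12, at chr5:22853295-22853594 on the minus strand, and UBE2QL1, at chr5:6448609-6448908 on the plus strand. Capitals mark matches, on either strand, to any of 7 motifs: the CCAAT box (CCAAT), the SP1 GC box (GGGCGG), the E-box (CACGTG), the ETS core (CCGGAAG), the AP-1 site (TGANTCA), the CRE (TGACGTCA) and the TATA box (TATAAA). Matches of a motif may overlap, as GC boxes do in OSMR.
OSMR: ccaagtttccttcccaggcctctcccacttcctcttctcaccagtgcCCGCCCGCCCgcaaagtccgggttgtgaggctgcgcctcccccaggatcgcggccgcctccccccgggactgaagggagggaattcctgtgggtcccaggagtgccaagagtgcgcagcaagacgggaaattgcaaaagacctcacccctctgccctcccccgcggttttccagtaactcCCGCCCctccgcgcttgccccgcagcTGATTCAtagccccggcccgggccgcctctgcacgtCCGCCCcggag
BASP1: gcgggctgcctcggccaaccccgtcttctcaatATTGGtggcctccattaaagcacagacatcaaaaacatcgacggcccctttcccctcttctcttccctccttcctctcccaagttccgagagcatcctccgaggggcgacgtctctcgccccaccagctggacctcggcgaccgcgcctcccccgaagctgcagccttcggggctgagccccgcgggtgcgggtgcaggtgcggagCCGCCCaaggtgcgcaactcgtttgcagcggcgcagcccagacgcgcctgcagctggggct
EGFLAM: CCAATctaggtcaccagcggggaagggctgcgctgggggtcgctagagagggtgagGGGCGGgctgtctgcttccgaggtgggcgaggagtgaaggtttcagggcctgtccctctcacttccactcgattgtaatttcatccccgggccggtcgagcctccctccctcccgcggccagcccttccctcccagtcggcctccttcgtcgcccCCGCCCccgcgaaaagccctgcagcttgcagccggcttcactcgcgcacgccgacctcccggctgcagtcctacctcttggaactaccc
UGT3A2: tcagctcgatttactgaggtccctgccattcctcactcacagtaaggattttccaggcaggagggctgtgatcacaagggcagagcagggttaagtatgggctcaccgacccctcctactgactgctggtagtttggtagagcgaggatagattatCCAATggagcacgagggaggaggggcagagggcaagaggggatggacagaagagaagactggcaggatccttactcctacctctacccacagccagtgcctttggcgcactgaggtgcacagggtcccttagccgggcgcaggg
CDH12: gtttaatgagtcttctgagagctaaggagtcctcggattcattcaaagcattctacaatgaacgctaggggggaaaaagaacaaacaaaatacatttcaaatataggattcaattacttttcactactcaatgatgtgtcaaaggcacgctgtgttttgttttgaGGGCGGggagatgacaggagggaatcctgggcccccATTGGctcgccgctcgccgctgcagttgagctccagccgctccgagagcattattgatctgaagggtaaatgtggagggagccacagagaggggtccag
UBE2QL1: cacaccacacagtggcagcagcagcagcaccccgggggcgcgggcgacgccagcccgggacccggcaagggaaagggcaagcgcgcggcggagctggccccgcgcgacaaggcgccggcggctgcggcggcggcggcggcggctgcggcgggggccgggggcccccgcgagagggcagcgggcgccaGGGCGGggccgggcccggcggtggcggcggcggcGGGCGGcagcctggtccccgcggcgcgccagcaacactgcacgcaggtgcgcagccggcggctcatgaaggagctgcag

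GC boxes were found in the windows of OSMR, BASP1 and EGFLAM, and also in those of CDH12 and UBE2QL1 at the low end. The UGT3A2 window held a CCAAT box alone, and the OSMR window an AP-1 match just after its start. G and C made up 67.7% of the OSMR window, 66.7% for BASP1, 67.3% for EGFLAM, 57.0% for UGT3A2, 48.3% for CDH12 and 82.3% for UBE2QL1. Across the 77 members with a window, 74.0% held a GC box, against 70.9% of 10206 windows of the other expressed genes and 44.6% of all 27305 windows. The share was 83.3% of the 30 windows of members with a ratio of at least 1 and 57.1% of the 14 windows of members at -1 or below. CCAAT boxes were found in 33.8% of the members' windows, 36.3% of those of the other expressed genes and 35.7% of all windows. Split in the same way the order was the opposite, with 26.7% of the windows of members at 1 or more and 42.9% of those at -1 or below. Most of the 14 members at -1 or below, UGT3A2, CDH12 and UBE2QL1 among them, passed the limit only through si-NC. OSMR passed only through si-FTO. Windows of the other expressed genes were not split in this way. Nothing is therefore read from these splits, here or for the rarer motifs.

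The remaining motifs were rarer. ETS cores were in 13.0% of the members' windows, 17.7% of those of the other expressed genes and 10.7% of all windows. For the E-box these shares were 9.09%, 10.4% and 7.43%, and for the TATA box 2.60%, 5.80% and 12.0%. The AP-1 site was in 2.60%, 4.25% and 7.76% of windows in the same order, and the CRE in 1.30%, 3.27% and 1.98%. The members were also split into the 30 windows at 1 or more and the 14 at -1 or below. Windows with a match numbered 5 and 0 for the ETS core, 1 and 2 for the E-box, and 2 and 0 for the AP-1 site. They numbered 1 and 0 for the CRE, and 0 and 1 for the TATA box. The median GC content of the windows was 67.7% for members, 65.7% for the other expressed genes and 58.3% for all windows. It was 67.5% for members at 1 or more and 68.3% for those at -1 or below. A match is a description of the letters in a window, and binding was not measured.

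Higher values were spread along most of the arm. Counted by gene start in bins of 10 Mb from the tip, the median log2 ratio was 0.79 over the 25 genes of the bin from 0 to 10 Mb and 1.21 over the 15 genes from 10 to 20 Mb. It was -1.97 over the 2 genes from 20 to 30 Mb and 0.66 over the 29 genes from 30 to 40 Mb. The bin from 40 to 50 Mb spans the centromere. Its 17 genes had a median of 0.47, and 15 of them lie on 5p. The first member from the tip, CCDC127, was at 5.93 TPM in si-NC against 10.7 TPM in si-FTO, and the last, NNT, was at 41.9 and 107 TPM. Position along the arm and log2 ratio had a Spearman correlation of 0.07 across the 86 members.

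The bin with the negative median is a stretch poor in expressed genes. It holds CDH12 and CDH10, a pair of type II cadherins of neurons, both listed at 0 in si-FTO. Both passed the limit only through si-NC, so the limit fixed the negative sign of this bin. On the side of the tip they are preceded by RETREG1, MYO10 and BASP1, with log2 ratios of 1.54, 1.59 and 4.91. Toward the centromere they are followed by C5orf22, at 0.14, PDZD2, at -0.28, and GOLPH3, at 1.28. PDZD2, a low gene at 1.74 and 1.25 TPM, was above 0 under quantile normalization.

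Stretches of members above 0 were interrupted by low members. The longest stretch of members above 0 held 12 genes from EGFLAM to FBXO4, between positions 38258511 and 41941845 in GRCh37, with a median log2 ratio of 1.61. It includes LIFR, OSMR, RICTOR, DAB2 and PRKAA1. A stretch of 10 genes from NSUN2 to MARCHF6, between 6599352 and 10440500, had a median of 1.23. The low members lay singly or in pairs between such stretches, as SLC9A3, TPPP and ZDHHC11B did near the tip. Among the low members, 10 passed the limit only through si-NC, SLC9A3 among them. OSMR and PTGER4 in the longest stretch, and SEMA5A in the next, passed only through si-FTO. The limit fixed the signs of these genes, so nothing is read from the lengths of the stretches.

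**Figure D3:**
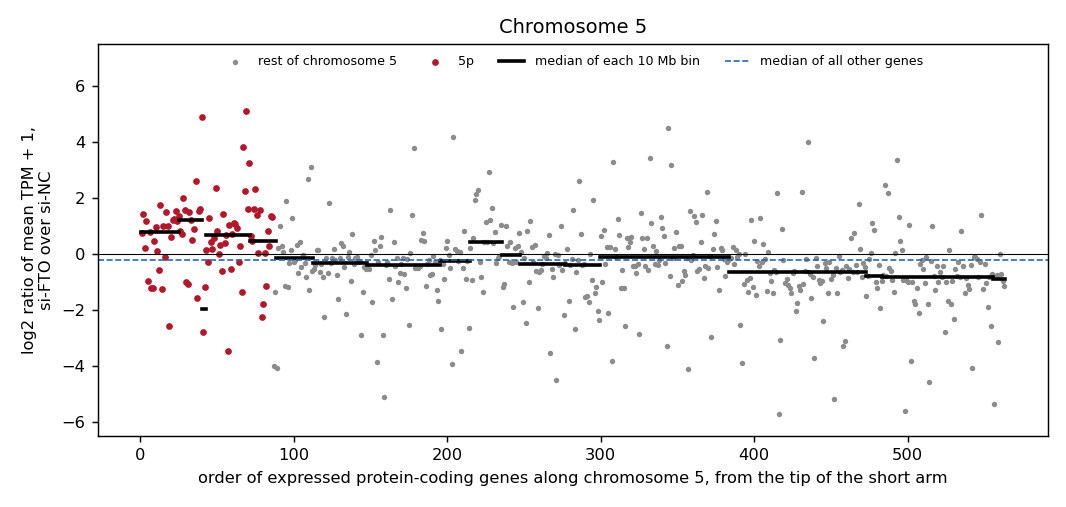
Log2 ratio of mean TPM + 1, si-FTO over si-NC, for expressed protein-coding genes in their order along chromosome 5, with the 86 genes of 5p in red, the rest in grey, black bars for the median of each 10 Mb bin and a dashed line at the median of all other genes, -0.20. Bars on 5p lie above 0 except over CDH12 and CDH10, which passed the limit only through si-NC. Most bars beyond lie below 0.

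The values differed on the far side of the centromere. NNT was followed by EMB, an immunoglobulin-family membrane protein at 15.1 TPM in si-NC but listed at 0 in si-FTO, and PARP8, at 14.8 and 5.22 TPM. Next came ISL1, a homeobox gene at 15.7 TPM in si-NC but listed at 0 in si-FTO, PELO, at 21.3 and 24.8 TPM, and ITGA1, at 1.87 and 4.74 TPM. The 24 genes from 50 to 60 Mb had a median log2 ratio of -0.13. Over the 477 genes of the rest of chromosome 5 the median was -0.40, and 30.0% were above 0. The bin from 90 to 100 Mb, with 21 genes, was an exception at 0.42.

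The arm was also set beside whole chromosomes. Medians of the other chromosomes lay between -0.68 for chromosome 18 and 0.15 for chromosome 15, where 59.8% of genes were above 0. A whole chromosome averages over more genes than an arm does, and other arms were not compared as units. In bins of 10 Mb with at least 10 genes, 4 of 284 had a median at or above 0.77, and 2 of them were on 5p, from 0 to 10 and from 10 to 20 Mb. The others were on chromosome 13, from 100 to 110 Mb at 0.83 and from 110 to 120 Mb at 1.43. The next highest was on chromosome 12, from 10 to 20 Mb at 0.71. On chromosome 18, whose median was the lowest, the bins from 0 to 10 and from 10 to 20 Mb stood at 0.46 and 0.41. Of the 284 bins, 64 had a median above 0.

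**Figure D4:**
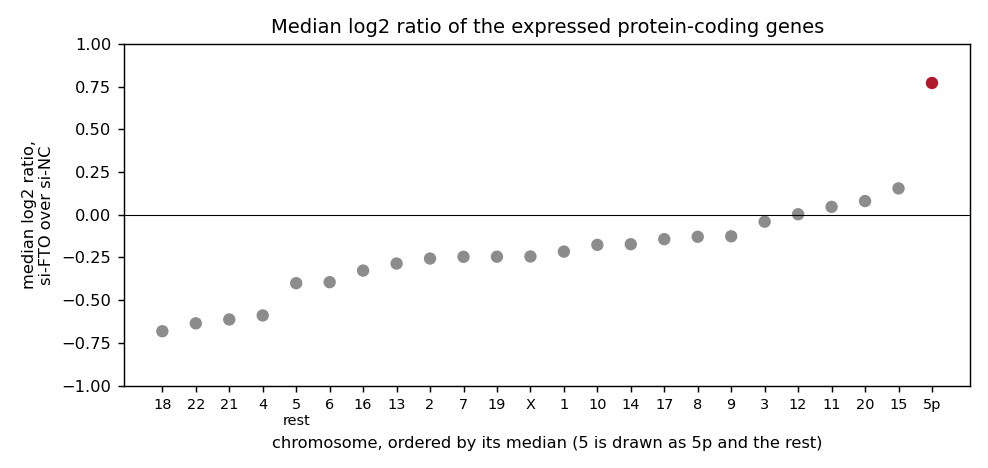
Median log2 ratio of mean TPM + 1, si-FTO over si-NC, over the expressed protein-coding genes of each chromosome, with 5p in red and all others in grey. The median of 5p is 0.77, and the next, chromosome 15, is 0.15.

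The members were then grouped by role. Beside the counts of each list stand the shares over all 86 members, 74.4% above 0, 40.7% at 1 or more and 16.3% at -1 or below, and those over the other genes, 40.2%, 12.9% and 19.8%. The lists are short, and nothing particular to a list is read from its counts. In the lists other than ligands and receptors, CDH12, CDH10, SLC9A3, UGT3A2, UBE2QL1, FBXL7 and NIM1K passed the limit only through si-NC. The limit therefore fixed their negative signs.

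Ligands and receptors held the member with the highest ratio. Of 14 listed genes 8 were expressed, with a median log2 ratio of 0.91, 4 at 1 or more and 2 at -1 or below. LIFR alone reached 1 TPM in both groups. OSMR, NPR3, SEMA5A, PTGER4 and C1QTNF3 passed the limit only through si-FTO, and GHR and GDNF only through si-NC. The limit therefore fixed the signs of these ratios, and nothing is read from the median and counts of this list. OSMR, a receptor subunit for oncostatin M, was at 0.807 TPM in si-NC against 60.9 TPM in si-FTO, for a log2 ratio of 5.10. LIFR, its neighbour and the receptor for leukemia inhibitory factor, was at 8.08 and 42.5 TPM, a ratio of 2.26. Both proteins signal together with the shared chain gp130. NPR3, which clears natriuretic peptides, was at 0.0395 and 4.28 TPM, and SEMA5A, an axon guidance protein, was listed at 0 in si-NC but at 1.57 TPM in si-FTO. The opposite pattern was seen for the growth hormone receptor GHR, at 3.76 TPM in si-NC, and the neurotrophic factor GDNF, at 1.56 TPM, both listed at 0 in si-FTO. OSMR overlaps RICTOR at its end, and PTGER4 lies within the span of TTC33, so their values are uncertain where reads were not counted by strand.

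Adhesion and cytoskeleton genes had the widest range. Of 19 listed genes 11 were expressed, with a median of 0.66, 5 at 1 or more and 3 at -1 or below. BASP1, a membrane-attached protein of the actin-rich cell cortex, was at 30.9 TPM in si-NC against 956 TPM in si-FTO, 31.0 times as much, and was the second most abundant member there. EGFLAM, an extracellular matrix protein that binds dystroglycan, was at 2.86 and 53.9 TPM, a log2 ratio of 3.83. DAB2, a clathrin adaptor for endocytosis, was at 12.2 and 126 TPM, a ratio of 3.26. These 3 genes were at low or middle levels in si-NC and at high levels in si-FTO. MYO10, a motor of filopodia, was at 23.3 and 72.3 TPM. CDH12, at 5.85 TPM in si-NC, and CDH10 were listed at 0 in si-FTO. TPPP, which bundles microtubules, was at 6.25 and 2.08 TPM and overlaps CEP72. RAI14, an actin-binding protein, was at 43.6 TPM in si-NC against 28.3 TPM in si-FTO. In this list 6 genes were above 0, and 7 under quantile normalization, which moved PDZD2.

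Among transporters, 4 of 9 listed genes were expressed and had a median log2 ratio of 1.44. ANKH, which exports ATP, citrate and other anions from the cell, was at 17.4 TPM in si-NC against 111 TPM in si-FTO. SLC12A7, a potassium-chloride cotransporter, was at 17.3 and 61.2 TPM, and SLC1A3, a glutamate transporter, at 47.2 and 103 TPM. The sodium-proton exchanger SLC9A3, typical of intestinal epithelium, was the exception at 2.41 and 0.724 TPM, and it overlaps EXOC3. It passed the limit only through si-NC, which fixed its sign.

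Metabolic enzymes, 9 expressed of 11 listed, had a median of 1.20, with 5 at 1 or more and 1 at -1 or below. CMBL, a hydrolase known for activating prodrugs, was at 43.9 TPM in si-NC against 178 TPM in si-FTO, for a log2 ratio of 1.99. MTRR, which reactivates methionine synthase, was at 33.8 and 101 TPM and overlaps FASTKD3. OXCT1, which lets mitochondria use ketone bodies, was at 43.6 and 115 TPM. With NNT, which makes mitochondrial NADPH, these were higher by similar ratios, 1.54 for MTRR, 1.38 for OXCT1 and 1.33 for NNT. UGT3A2, a glycosyltransferase with the close paralog UGT3A1 beside it, was at 10.2 TPM in si-NC but listed at 0 in si-FTO. The fatty acid racemase AMACR, at 6.47 and 6.43 TPM, and the phospholipid acyltransferase LPCAT1, at 54.0 and 49.8 TPM, were nearly level. Of the 9 enzymes 6 were above 0, but 8 under median-ratio scaling, which moved AMACR and LPCAT1, and 7 under quantile normalization, which moved AMACR.

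In membrane traffic all 9 listed genes were expressed, with a median of 1.02 and 8 above 0 under each scaling. RETREG1, a receptor for the autophagy of endoplasmic reticulum, had the highest ratio, at 3.38 TPM in si-NC against 11.7 TPM in si-FTO. PDCD6, a calcium sensor of vesicle transport, was at 114 and 311 TPM and has a pseudogene copy on the arm. CLPTM1L, a membrane protein of the endoplasmic reticulum, was at 211 and 421 TPM. The palmitoyltransferase genes ZDHHC11 and ZDHHC11B are near-identical copies and could exchange reads. ZDHHC11 was at 12.2 and 17.4 TPM, and ZDHHC11B, the low exception, at 6.01 and 2.01 TPM.

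Protein folding, ubiquitin and cell death genes were all expressed as well, 9 of 9, with a median of 0.87. CCT5, a subunit of the chaperonin that folds actin and tubulin, was the most abundant member in both groups, at 680 TPM in si-NC against 1115 TPM in si-FTO. CARD6, a protein with a caspase recruitment domain, had the highest ratio of the list, 2.33, at 1.31 and 10.6 TPM. DAP, the death-associated protein, was at 75.5 and 214 TPM, and MARCHF6, a ubiquitin ligase of the endoplasmic reticulum, at 47.6 and 145 TPM. Lower values in si-FTO were found for UBE2QL1, related to ubiquitin-conjugating enzymes, at 5.02 and 0.0159 TPM. The F-box gene FBXL7 was also lower, at 2.55 and 0.200 TPM. Both passed the limit only through si-NC, which fixed their sign. Of the list, 7 genes were above 0 under each scaling.

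Chromosome maintenance and cell cycle genes had a median of 0.54 over 8 genes, 6 of them above 0 under each scaling. RAD1, part of the clamp that senses DNA damage, had the highest ratio, 1.41, at 16.6 TPM in si-NC against 45.6 TPM in si-FTO, and overlaps BRIX1. NIPBL, which loads cohesin, was at 12.5 and 27.2 TPM, and BRD9, a subunit of a chromatin remodeller, at 37.1 and 72.7 TPM. TRIP13, an ATPase of the spindle checkpoint and among the 5 most abundant members in si-NC, was nearly level at 130 and 139 TPM. Lower in si-FTO were SKP2, the F-box protein that marks cell cycle inhibitors for degradation, at 102 and 69.1 TPM, and TERT, the catalytic subunit of telomerase, at 4.51 and 1.29 TPM.

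Genes of transcription, RNA processing and translation were mostly above 0, as were the members as a whole. Of 11 genes 10 were above 0 under each scaling, the median was 0.62, 4 were at 1 or more and 0 at -1 or below. The highest ratio was that of ICE1, a scaffold of a complex needed for transcription of small nuclear RNAs, at 22.4 TPM in si-NC against 64.5 TPM in si-FTO. PAIP1, a partner of the poly(A)-binding protein, was at 67.4 and 172 TPM. Among the most abundant were NSUN2, an RNA cytosine methyltransferase, at 151 and 233 TPM, and TARS1, the threonyl-tRNA synthetase, at 186 and 326 TPM. The nuclear pore gene NUP155 was the only one below 0, at 68.7 and 55.6 TPM.

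The smaller lists went in both directions. Of 5 kinases and signalling genes 4 were expressed, 2 above and 2 below 0 under each scaling. RICTOR, the defining subunit of an mTOR complex, was at 4.30 TPM in si-NC against 15.2 TPM in si-FTO, and PRKAA1, a catalytic subunit of AMP-activated kinase, at 27.8 and 86.9 TPM. NIM1K, a related kinase, was at 1.70 and 0.221 TPM, and the Wnt antagonist NKD2 at 25.4 and 16.7 TPM. Of 4 transcription factors, AHRR, the repressor of the aryl hydrocarbon receptor, was expressed, at 19.1 and 22.4 TPM, and the Iroquois homeobox genes were under the limit. Of 4 complement and plasma proteins, SELENOP, the selenium carrier, was expressed, at 34.3 TPM in si-NC against 9.21 TPM in si-FTO. It was the most abundant of the members at -1 or below and overlaps CCDC152. A further 11 members belonged to no list and had a median of 0.63, with 9 above 0.

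**Figure D5:**
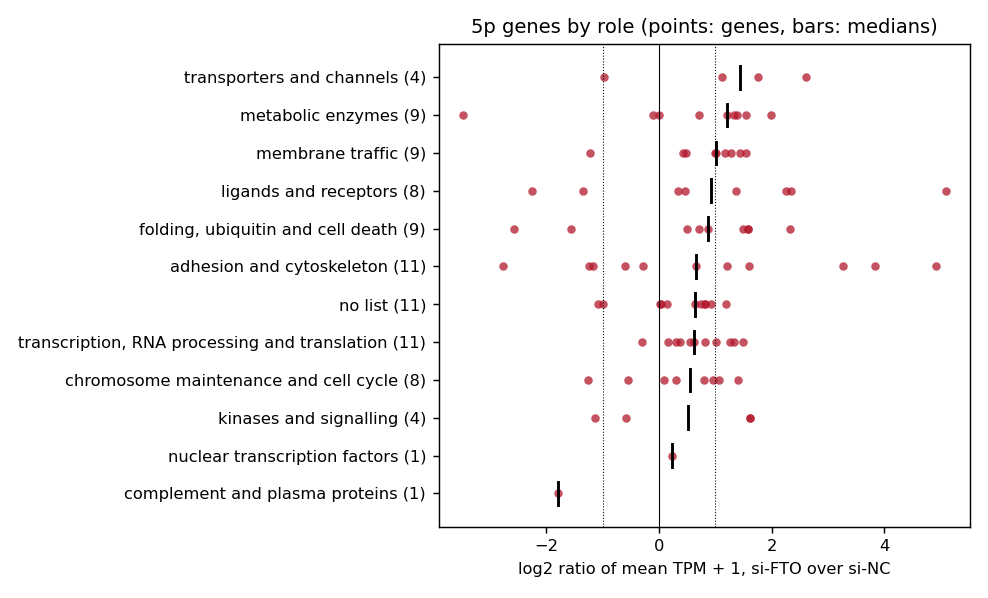
Log2 ratio of mean TPM + 1, si-FTO over si-NC, of the 86 genes of 5p by role, with a point for each gene, a bar for the median of each list and the number of genes in parentheses. Medians run from 1.44 for transporters to -1.79 for the list with SELENOP alone, and the adhesion list spans from CDH12 to BASP1. Under other scalings AMACR, LPCAT1 and PDZD2 change sign.

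Genes of 5p that do not code for protein were not used by the rule, although their values come from the same libraries. Of 50 such genes passing the same limit, 37 were above 0, against 39.9% of 3985 elsewhere, and their median log2 ratio was 0.86 against -0.23. Many of those above 0 passed the limit only through si-FTO, so their sign was fixed by it, and few passed only through si-NC. BASP1-AS1, LIFR-AS1, OSMR-DT and ENSG00000251257, described below, are among those passing through si-FTO alone. Nothing is therefore read from these counts as support. Among them, 28 of 32 long noncoding RNAs and 8 of 16 pseudogenes were above 0, against 42.6% and 33.7% of these classes elsewhere. The pseudogenes of 5p had a median of 0.08. Several of the long noncoding RNAs lie beside the members with high ratios. BASP1-AS1, which overlaps BASP1, was at 0.0298 TPM in si-NC against 6.79 TPM in si-FTO, and LIFR-AS1, which overlaps LIFR, at 0.820 and 2.67 TPM. A long noncoding RNA without a symbol, ENSG00000251257, overlaps the end of EGFLAM and was listed at 0 in si-NC but at 47.1 TPM in si-FTO. OSMR-DT, which ends just before OSMR, was listed at 0 in si-NC but at 1.43 TPM in si-FTO. Transcripts that overlap a neighbour cannot be told apart from it where strand was not used in counting.

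The 10 expressed genes left out by symbol had a median log2 ratio of 0.80, with 9 above 0. With no symbols left out, 39.5% of the 13439 other genes were above 0. Genes with such symbols elsewhere were not set apart, and nothing is read from this count as support. The 10 genes ran from -0.24 for HMGCS1, an enzyme of cholesterol synthesis, to 1.47 for the ribosomal protein gene RPL37. HMGCS1 was at 64.0 TPM in si-NC against 54.2 TPM in si-FTO, and RPL37 at 609 and 1691 TPM.

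The ratio had weak correlations with gene structure. The Spearman correlation of log2 ratio with gene span was 0.09 and with the GC content of transcripts -0.13, across the 86 members. Across the other genes these correlations were -0.03 and 0.05. All of these genes share the same libraries. The median span was 54412 bases for members and 33983 bases for the other genes. Transcripts of members had a median GC content of 43.8%, against 48.8%. In all, 19 members overlap another protein-coding gene.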

How the data were processed

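The authors sequenced 3 si-NC and 3 si-FTO libraries, and the deposited table gives TPM for 58174 genes as a mean of each group. The paper's methods name Bowtie and RSEM with hg19, while the submitters' processing notes name HISAT2 with hg19, and whether counting used strand is not given in the sources used here. The deposited table also holds the authors' log2 ratio, p-value and q-value per gene, which were not used. The si-NC column added up to 999973 TPM and the si-FTO column to 999960 TPM. TPM keeps no depth, so the counting error of each mean is unknown. A second deposited table, the authors' list of differentially expressed genes, holds 7986 of the same genes with the same means and was not used.

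Positions and biotypes came from the GENCODE annotation, release 44, lifted to GRCh37, and 55726 of the identifiers matched. Log2 ratios were computed from mean TPM with a pseudocount of 1, after keeping genes with at least 1 TPM in either group, and 1 in size was the threshold. A value of 0.0001 was read as listed at 0. The planned limma fit was not possible on group means, so no test was made. The members and lists were chosen with earlier results of these data known. Bands of average TPM were chosen after seeing the data. The genes named are the 10 highest and 10 lowest log2 ratios, the 5 most abundant members in each group, the first and last member, those next to the limit, the neighbours where bins change sign, and the highest, lowest or sole member of each role list. A gene of the leukocyte list, and with it the sum of that list, is not reported here. Any other gene in the text was picked with its values in view. Alternatives were other pseudocounts, limits and scalings, and other sets of genes. Python 3.11.15 with numpy 2.4.6, pandas 2.3.3 and matplotlib 3.10.9 was used, and the calculations were tested on simulated data.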

Additional observations from a re-analysis of the deposited data

How the results depend on the processing

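The median log2 ratio of the 5p genes stayed above 0, and above that of the other genes, under each of the 12 alternatives run. Alternatives were run for the medians, their difference and the counts over all members, not for the bins, bands or motifs. For single members and the role lists only the scalings were changed, and there AMACR, LPCAT1 and PDZD2 changed sign. The median of 0.77 and the difference of 0.98 became 0.85 and 1.07 with a pseudocount of 0.1, and 0.86 and 1.08 with none. With a limit of 5 TPM they were 0.92 and 1.09, with 7 genes at -1 or below (9.86%, against 17.0% of the other genes), and with a limit of 10 TPM 1.00 and 1.16, with 2 such genes (3.17% against 14.8%). An average of at least 1 TPM gave 0.81 and 1.00. With no limit on low values they were 0.09 and 0.12 over 141 genes, 24 of them listed at 0 in both groups, with 80 above 0 (56.7% against 33.5%) and 35 at 1 or more (24.8% against 8.8%). Median-ratio scaling gave a median of 0.96. Quantile normalization gave 0.94 and 1.03, with 7 genes at -1 or below (8.14% against 15.9%). Leaving out no symbols gave 0.79 and 1.00. Genes of all biotypes gave 0.82 and 1.02, with 53 genes at 1 or more (39.3% against 13.2%) and 101 above 0 (74.8% against 40.3%) among 135. A threshold of 2 in size left 8 genes higher (9.3% against 5.79%) and 4 lower (4.65% against 7.94%). Chosen after seeing the data, genes not listed at 0 in either group gave 0.81 and 0.99, with 9 genes at -1 or below (11.2% against 16.4%), and genes that overlap no other gave 0.82 and 1.03. The causes of these shifts were not tested. No paired analysis was possible because the table holds 1 mean per group, and for that reason leaving out each replicate was not possible either. Depth is unknown, so it cannot be said how far counting error limits the low genes.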
